A study of Mus musculus with 6 samples.

Results

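The small heat shock proteins and the chaperones that work with them at the sarcomere were followed as a set of 10 genes, chosen by name: Hspb1, Cryab, Hspb6, Hspb7, Hspb8, Bag3, Hspa1a, Hspa1b, Hspa8 and Hsp90aa1. All 10 were among the 17222 genes that passed the filter on low counts, out of 55401 in the table. RNA-seq had been performed on the tibialis anterior (TA), a fast muscle of the lower leg, in 6 libraries of C57BL/6 male mice with the genotype HSA-MCM-Bmal1-/- (iMSBmal1), in which a tamoxifen-inducible Cre driven by the human skeletal actin promoter removes the clock gene Bmal1 from muscle fibres but not from other cells of the muscle. Mice kept to an age of 12 to 16 weeks had tamoxifen, 2 mg a day over 5 days, adeno-associated virus (AAV) was injected through the TA 4 weeks later, and the muscle was collected after another 4 weeks. The groups were AAV-GFP (n = 3) and AAV-RBM20 (n = 3). The RBM20 vector carried mouse Rbm20, a splicing factor of titin, with an HA tag behind the CMV promoter. All 6 libraries carry the knockout, so no value here compares it with intact Bmal1. The dose of the RBM20 vector exceeded that of the control vector, and dose and transgene cannot be told apart. The comparison asks whether raising RBM20 in muscle without Bmal1 came with other chaperone transcript levels.

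Small heat shock proteins share an alpha-crystallin domain, form oligomers without using ATP, and hold unfolding proteins in a state from which they can be recovered. In striated muscle they bind titin, desmin, actin and filamin C at the Z-disc and I-band, where mechanical load unfolds protein. BAG3 links the small heat shock protein HSPB8 to HSP70 and passes damaged filamin to autophagy. The heat-inducible genes of the family are switched on by heat shock factor 1 through heat shock elements, which are alternating units of the letters GAA and TTC.

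Heat shock elements were looked for in the RefSeq promoter windows (GRCm38.p6, 250 bases before to 50 after a gene's start), because these genes are best known as heat shock factor targets. Windows matched 7 of the 10 genes, all but Cryab, Hspa8 and Hsp90aa1. The element of 3 units, GAANNTTCNNGAA or TTCNNGAANNTTC on the other strand, was in 0.603% of 32851 windows and in none of the 7 genes. The shorter form of 2 units, GAANNTTC or TTCNNGAA, each of which reads the same on both strands and each of which the longer form contains, was in 15.1% of windows. It was in a window of Hspb1, Hspb6, Hspb8, Bag3, Hspa1a and Hspa1b, and not in that of Hspb7. Counted by gene, 17% of all genes had it in any of their windows. In Hspb8 and Bag3 it lies after the start, at positions 3 to 10 and 43 to 50. The E-box CACGTG, the letters bound by BMAL1 with CLOCK, was in 7.15% of windows and in none of the 7 genes. The stretches before the start of Hspb1 and of the 2 inducible HSP70 genes are shown because they hold the 2-unit form, in capitals, upstream of the whole gene, and because those of Hspa1a and Hspa1b cannot be told from each other.
Hspb1 (chr5:135887782-135887849, plus strand): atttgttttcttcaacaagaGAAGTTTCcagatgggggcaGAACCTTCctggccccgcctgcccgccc
Hspa1a (chr17:34972233-34972280, minus strand): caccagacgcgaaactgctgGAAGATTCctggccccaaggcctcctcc
Hspa1b (chr17:34959315-34959362, minus strand): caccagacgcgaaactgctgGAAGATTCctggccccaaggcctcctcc
Hspb1 holds the form at 2 places, at positions -117 to -110 and -97 to -90 from the start. Hspb6 holds it at -120 to -113 from the second of its 2 annotated starts, a place inside the gene that is not shown. In Hspa1a and Hspa1b it lies at -104 to -97, and their windows were identical at 247 of the 250 bases before the start. A match of letters is a description of these windows and not a binding site, and a missing match says only that these letters are not in the window.

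Total counts ran from 41400132 to 54226618 per library. Rbm20 reached 170.0, 165.4 and 163.9 CPM (counts scaled to a common library size by TMM) in libraries 1, 2 and 3 of AAV-GFP, against 499, 545 and 406 CPM in AAV-RBM20, where every library was above every control. The edgeR estimate for Rbm20 was 1.54 ± 0.15 (log2 fold change ± SE), at an adjusted p of 0.121, which was 0.0107 once the replicate number was blocked. The fast fibre markers, led by fast myosins, summed to between 58400 and 104000 CPM and were above 0 in every library. In both groups library 3 stood apart: 4.48% of counts in AAV-GFP 3 and 9.05% in AAV-RBM20 3 came from titin (Ttn), against 16.9% to 17.8% in the other 4, with 11.4% to 12.5% mitochondrial against 6.41% to 7.67%. The labels do not say what a replicate number stands for, nor that the libraries of a group came from separate animals, so p-values measure the spread between these samples.

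None of the 10 chaperone genes passed the test between AAV-RBM20 and AAV-GFP, and none had group ranges that were apart. The 10 log2 fold changes lay between -0.26 (Hspb8) and 0.26 (Hspa1a), 5 above 0 and 5 below, with a median of -0.00376 beside 0.00897 over all genes tested. By the edgeR quasi-likelihood test with Benjamini-Hochberg adjustment 0 of 10 passed, with adjusted p from 0.665 to 0.991, against a background of 0% of all genes. At an unadjusted p under 0.05 the count was again 0 of 10, where 7.90% of all genes tested fell. The CPM ranges of the groups overlapped for all 10 genes, while for 16.8% of all genes they did not. Adding the replicate block left the count at 0 of 10 (adjusted p from 0.326 to 0.948), beside 0.145% of all genes, and 0 of 10 had an unadjusted p under 0.05 there, beside 18.8%. Leaving out both libraries numbered 3 gave 0 of 10 beside 4.00%, and DESeq2 with the block gave 0 of 10 beside 3.28%.

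A p that misses the threshold does not show equal levels, so the intervals say how large a difference these 6 libraries leave room for. The 95% interval lay inside a 2-fold change in either direction for 8 of the 10 genes, and for Hspb7 and Hspa1a it did not. The tightest was that of Hspb1, from 0.866-fold to 1.31-fold. The widest was that of Hspb7, from 0.444-fold to 2.17-fold.

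**Figure D1:**
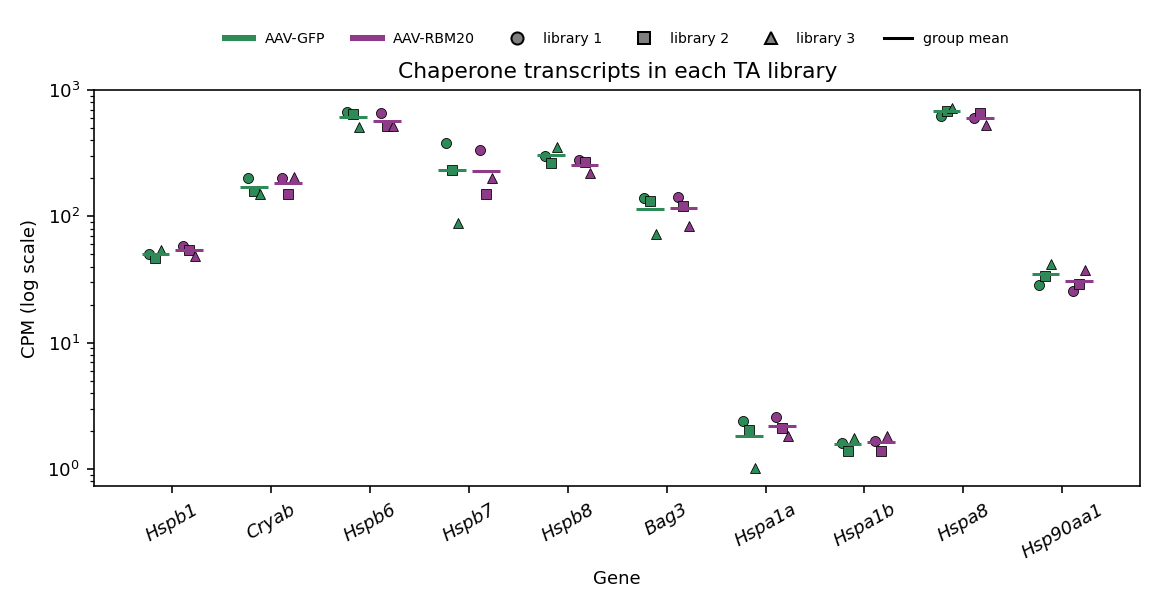
CPM (log axis) of the 10 genes in each library, with AAV-GFP in green and AAV-RBM20 in purple, a marker shape for each library number and a line at the group mean. The groups overlap for every gene, Hspa1a and Hspa1b lie between 1.01 and 2.57 CPM, and library 3 of AAV-GFP lies lowest for Hspb7 at 88.3 CPM.

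Hspb1 encodes HSP25, the mouse form of HSP27, which caps actin filaments and responds to stress kinases. It lies at chr5:135887919-135889563 on the plus strand (GRCm38). Hspb1 measured 50.2, 47.1 and 54.4 CPM in AAV-GFP and 58.5, 54.3 and 48.6 CPM in AAV-RBM20. It was the steadiest of the 10 genes, with a highest library only 1.24 times its lowest, and the values of the groups interleave. Its log2 fold change was 0.09 ± 0.13 (edgeR adjusted p = 0.848).

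Cryab, at chr9:50751325-50756636, encodes alpha-B-crystallin, a chaperone of desmin and titin. Its levels were 202, 160.0 and 151 CPM in AAV-GFP and 199.6, 150.0 and 203 CPM in AAV-RBM20. Library 1 was high in both groups, library 2 was low in both, and library 3 was low in AAV-GFP and high in AAV-RBM20. Its fold change on the log2 scale was 0.11 ± 0.18 (edgeR adjusted p = 0.865). Cryab shares 252 exon bases with Hspb2 on the opposite strand, and the strand setting of the counting is not given in the sources used here, so reads of that stretch may count for either gene.

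Hspb6 encodes HSP20, which is phosphorylated in contracting muscle and works with BAG3 and HSPB8, and it was the most abundant of the 10 per length. At chr7:30552178-30555443 it measured 675, 643 and 505 CPM in AAV-GFP and 656, 516 and 519.6 CPM in AAV-RBM20. Its highest library in both groups was number 1. On the log2 scale AAV-RBM20 minus AAV-GFP came to -0.11 ± 0.17 (edgeR adjusted p = 0.864). Hspb6 shares 122 exon bases with Proser3 on the opposite strand, which was listed at 2.49 to 5.40 CPM.

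Hspb7, at chr4:141420779-141425311, encodes the heart and skeletal muscle form known as cvHSP, which binds filamin C and titin. It was the most variable of the 10 by a wide margin. Its levels were 384, 231 and 88.3 CPM in AAV-GFP, a 4.35-fold range, and 338, 151 and 201 CPM in AAV-RBM20, a 2.24-fold range. The AAV-GFP libraries alone span all 3 AAV-RBM20 values. Its log2 fold change was -0.03 ± 0.50 (edgeR adjusted p = 0.991), and leaving out AAV-GFP 1 or AAV-GFP 3 moved it to 0.52 or -0.42. The list of slow fibre markers also holds Myh2, a myosin of fast oxidative fibres, so its sum is not of slow fibres alone. The summed slow fibre markers were 676, 556 and 90.3 CPM in AAV-GFP and 948, 515 and 708 CPM in AAV-RBM20. Within each group these sums put the 3 libraries in the same order as Hspb7 did. Hspb6 had this order too, so it is not particular to Hspb7, and the part of fibre type in the spread was not tested.

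Hspb8 and Bag3 encode the core pair of chaperone-assisted autophagy. Hspb8, at chr5:116408491-116422864, measured 299, 264 and 357 CPM in AAV-GFP and 279, 269 and 221 CPM in AAV-RBM20. Its log2 fold change of -0.26 ± 0.16 was the most negative of the set and had the smallest adjusted p, 0.665 by edgeR. The libraries numbered 3 are the highest of AAV-GFP and the lowest of AAV-RBM20. Without both of them the log2 fold change was -0.03.

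Bag3, at chr7:128523616-128546981, measured 139.5, 131 and 71.9 CPM in AAV-GFP and 142, 122 and 83.2 CPM in AAV-RBM20. Library 3 was the lowest in both groups, at 0.532 times the mean of libraries 1 and 2 in AAV-GFP and 0.63 times in AAV-RBM20. The group means were 114 ± 36.8 and 116 ± 30.1 CPM (SD, n = 3 each), and the log2 fold change was 0.02 ± 0.28 (edgeR adjusted p = 0.988). Per length Hspb8 stood at 2.58 to 6.52 times Bag3 over the 6 libraries, with overlapping groups and the highest ratio in AAV-GFP 3.

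Hspa1a and Hspa1b encode the stress-inducible HSP70. Both lie on the minus strand of chromosome 17, at chr17:34969190-34972156 and chr17:34956436-34959238, each as a single exon. Their counts were low. Hspa1a had 98, 84 and 53 counts in AAV-GFP against 140, 84 and 89 in AAV-RBM20, or 2.41, 2.01 and 1.01 CPM against 2.57, 2.09 and 1.83 CPM. Hspa1b had 65, 58 and 93 counts in AAV-GFP against 91, 56 and 88 in AAV-RBM20, or 1.60, 1.39 and 1.77 CPM against 1.67, 1.39 and 1.81 CPM. In no library did either gene exceed 2.57 CPM. The lowest of these counts, 53, has an exact 95% Poisson lower bound of 39.7, which covers counting error only.

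The fold changes of the inducible pair were small beside their errors. By edgeR the log2 fold change was 0.26 ± 0.34 for Hspa1a and 0.04 ± 0.24 for Hspa1b (edgeR adjusted p = 0.831 and 0.973). Hspa1a without AAV-GFP 3 stood at -0.03. Of all stretches of 100 bases, the read length, 47.1% of those of Hspa1a occur in Hspa1b and 49.9% of those of Hspa1b in Hspa1a, so reads cannot be assigned to 1 gene along much of their length and the split between them is uncertain. Hspa1a also shares 564 exon bases with Gm20481 on the opposite strand, which was listed at 0 counts in all 6 libraries. The summed pair measured 4.01, 3.40 and 2.77 CPM in AAV-GFP and 4.23, 3.48 and 3.65 CPM in AAV-RBM20, a log2 fold change of 0.16 ± 0.20 (edgeR adjusted p = 0.827).

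Hspa8 encodes HSC70, the constitutive HSP70 that does most of the daily folding work and delivers proteins to autophagy. At chr9:40800984-40810087 it measured 622, 686 and 722 CPM in AAV-GFP and 603, 659.7 and 533 CPM in AAV-RBM20. The AAV-RBM20 library was the lower in 3 of 3 same-numbered pairs, and the groups still overlapped. Its log2 fold change was -0.18 ± 0.14 (edgeR adjusted p = 0.727), and -0.05 without both libraries numbered 3. Of its stretches of 100 bases 28.5% also occur in another gene, most of them in the pseudogene Gm15459, which was listed at 10.8 to 14.3 CPM. As the reverse complement, 26.3% of the stretches of Hspa8 also occur in Gm26825.

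Hsp90aa1 encodes the inducible HSP90, a chaperone of kinases and, with UNC45B, of myosin. At chr12:110690605-110702728 it measured 28.4, 33.8 and 42.0 CPM in AAV-GFP and 25.8, 28.9 and 37.9 CPM in AAV-RBM20. As with Hspa8, the AAV-RBM20 library was the lower in 3 of 3 pairs, with log2 ratios between -0.22 and -0.14, while library 3 was the highest of both groups. The log2 fold change was -0.17 ± 0.20 (edgeR adjusted p = 0.805), and with the block its adjusted p of 0.326 was the lowest of the 10 genes in that fit. Without AAV-GFP 3 the log2 fold change of Hsp90aa1 was -0.01, and without AAV-RBM20 3 it was -0.34. Pseudogenes and other genes share 38.0% of its stretches of 100 bases, and the pseudogene Hsp25-ps1, at 0.309 to 0.517 CPM, shares 44.0% of those of Hspb1.

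**Figure D2:**
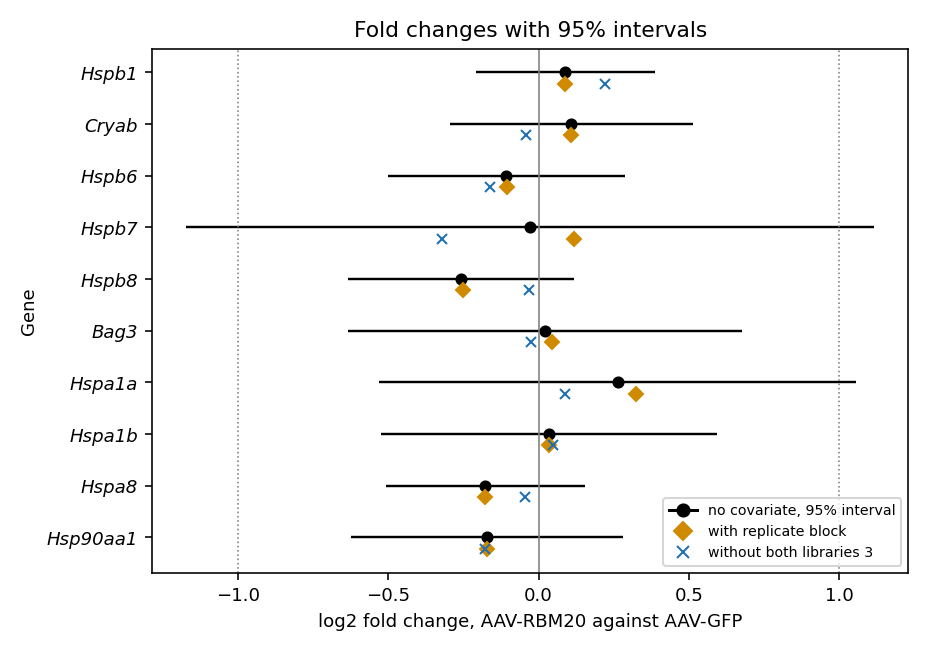
log2 fold change of AAV-RBM20 against AAV-GFP for each of the 10 genes, with the 95% interval of the fit without a covariate (black), the value with the replicate block (orange) and the value without both libraries numbered 3 (blue), and dotted lines at a 2-fold change. All 10 intervals cross 0, those of Hspb7 and Hspa1a pass a dotted line, and the values of Hspb8 and Hspa8 lie near 0 without the libraries numbered 3.

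Levels between genes were compared per kilobase of merged exon, as the mean CPM per kb over 6 libraries. Hspb6 led with 255, followed by Hspa8 with 148, Hspb8 with 144, Cryab with 120, Hspb7 with 83.8, Hspb1 with 50.6, Bag3 with 44.9, Hsp90aa1 with 8.34, Hspa1a with 0.67 and Hspa1b with 0.573 CPM per kb. By the spread over libraries the order is clear at 3 steps only. The ranges over libraries did not overlap between Hspb6 and Hspa8, between Bag3 and Hsp90aa1, or between Hsp90aa1 and Hspa1a. At the other 6 steps neighbours in the order overlapped. Hspa8, Hspb8, Cryab and the genes down to Bag3 thus form a run without clear breaks between neighbours. Without division by length, mean CPM was 637.6 for Hspa8 and 585.8 for Hspb6, so the first step depends on the merged length.

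The constitutive forms exceeded the inducible ones in every library. Hspa8 stood at 95.5 to 174 times the sum of Hspa1a and Hspa1b per length. That sum may be too low where reads matched both genes, and the ratio depends on the merged exon lengths. Hsp90ab1, the constitutive HSP90, stood at 14.2 to 29.7 times Hsp90aa1, and the groups overlapped for both ratios. The other muscle small heat shock proteins were less abundant per length, at 28.8 CPM per kb for Hspb2 and 14.1 for Hspb3.

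The way the 10 genes moved over the 6 libraries was described by log2 CPM minus each gene's mean. Bag3 and Hspa1a were below libraries 1 and 2 in library 3 of both groups (for Hspa1a at 0.455 and 0.787 times their mean). Hspb7, at 0.287 and 0.824 times, and Hspb6, at 0.767 and 0.887 times, were below both in AAV-GFP 3 and between them in AAV-RBM20 3. Hsp90aa1 and Hspa1b were above them in both groups, at 1.35 and 1.38 times for Hsp90aa1 and at 1.18 times in each group for Hspa1b. Hspb8, Hspa8 and Hspb1 were above in AAV-GFP 3 and below in AAV-RBM20 3, while Cryab was the reverse. The directions in library 3 thus differed within the set. Filamin C (Flnc), the client of BAG3 and HSPB7, stood at 0.378 and 0.52 times in library 3, and Ttn at 0.239 and 0.438 times.

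Likeness between profiles was the root mean square difference of these centred values over 6 libraries. Hspb8 and Hspa8 were nearest to each other at 0.133, Hspb1 and Hspa1b at 0.165, and Bag3 and Hspa1a at 0.197. Cryab lay nearest to Hspa1b at 0.178, Hspb6 to Cryab at 0.191, and Hsp90aa1 to Hspa1b at 0.228. Hspb7 was the least like any other, with Hspa1a nearest at 0.378. Among genes averaging 3 or more on the log2 CPM scale, those nearest to the mean profile of the 10 were Prkcd (0.024), Atg16l1 (0.04), Arhgap21 (0.041), Phlpp2 (0.045) and Dapk2 (0.046). Genes that vary little come out near each other by this measure, so a small distance need not mean a shared rise and fall. In AAV-RBM20 2, for example, Hspb1 was at 0.061 and Hspa1b at -0.191. These distances rest on 6 libraries, of which those numbered 3 stood apart in composition, and they are a description only.

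**Figure D3:**
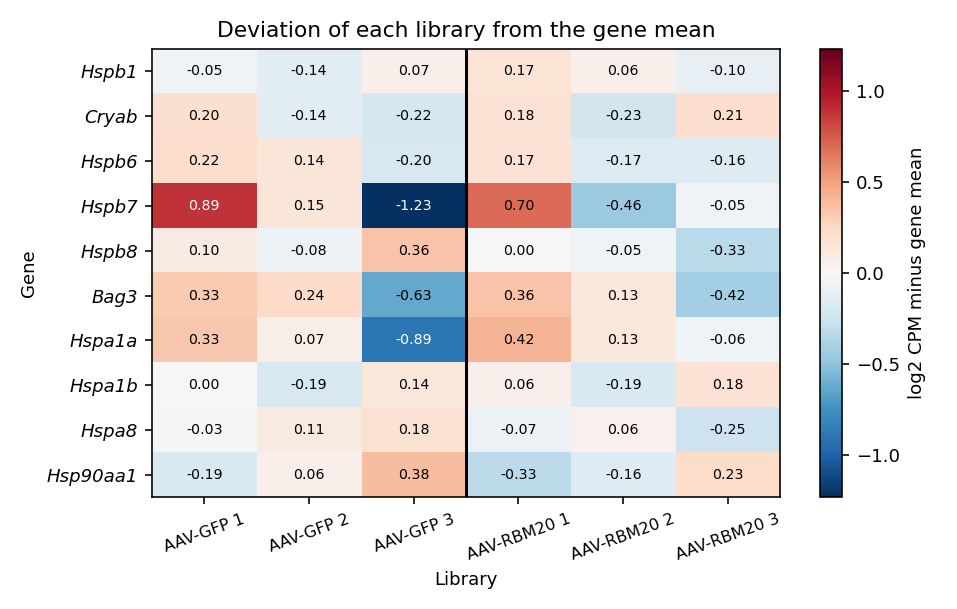
Deviation of log2 CPM from the gene's mean over 6 libraries, for the 10 genes (rows) in each library (columns), with red above and blue below the mean and a line between the groups. Hspb7 spans the widest range, Bag3 and Hspa1a are lowest in AAV-GFP 3, and Hsp90aa1 is highest in that library.

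The surrounding chaperone network was described through 7 lists of 60 genes, of which 58 were tested and Hspb9 and Cryaa, chaperones of testis and lens, were too low. No gene of these lists passed the edgeR test in the comparison of AAV-RBM20 with AAV-GFP (smallest adjusted p = 0.618). The log2 fold change was below 0 for 48 of 58 genes, or 82.8%, beside 48.7% of all genes tested, with a list median of -0.15. With upper quartile scaling, which raised the median of all genes from 0.00897 to 0.0528, it was below 0 for 44 of 58. Without AAV-GFP 3 the count was 40 of 58 and the median -0.06, beside 0.00614 for all genes, and without both libraries numbered 3 they were 41 of 58 and -0.07, beside 0.0112. Of the 58, 5 (8.62%) had an unadjusted p under 0.05, 4 lower and 1 higher, a share near the 7.90% of all genes. With the block 16 (27.6%) had, 13 of them lower, beside 18.8% of all genes. Group ranges did not overlap for 13 genes that were lower in AAV-RBM20, beside 9.04% of all genes, and for 1 that was higher, beside 7.71%.

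Values of HSP70 and HSP90 cochaperones were mostly below 0, with list medians that rested largely on AAV-GFP 3. In the list of other HSP70s and their cofactors 11 of 13 values were below 0, with a median of -0.17. Without AAV-GFP 3 this was 8 of 13 with a median of -0.04, and without both libraries numbered 3 it was 7 of 13 with -0.03. Hsph1, which encodes the nucleotide exchange factor HSP110, measured 56.5, 58.9 and 48.9 CPM in AAV-GFP and 39.7, 44.3 and 41.6 CPM in AAV-RBM20. These groups do not overlap, and its log2 fold change was -0.39 ± 0.13 (edgeR adjusted p = 0.618, and 0.00817 without both libraries numbered 3). Hspa2, an HSP70 best known from spermatocytes, had the opposite sign, with 5.68, 3.98 and 5.02 CPM in AAV-GFP and 8.51, 6.34 and 6.88 CPM in AAV-RBM20 and a log2 fold change of 0.57 ± 0.19 (edgeR adjusted p = 0.618). In the HSP90 machinery 12 of 13 values were below 0, with a median of -0.20, and 10 of 13 with a median of -0.07 without AAV-GFP 3 (-0.08 without both libraries numbered 3).

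The leading HSP90 gene of muscle, Hsp90ab1, had a mean of 613 ± 36.5 CPM in AAV-GFP and 490.3 ± 71.7 CPM in AAV-RBM20 (SD, n = 3 each). Its log2 fold change was -0.32 ± 0.15 (edgeR adjusted p = 0.641). Stip1, the HOP adaptor that passes clients from HSP70 to HSP90, followed with -0.28 ± 0.12 (edgeR adjusted p = 0.638). Both were lower in 3 of 3 same-numbered pairs, and neither passed the threshold. Without AAV-GFP 3 Hsp90ab1 stood at -0.37 and Stip1 at -0.261. Without AAV-RBM20 3 they were closer to no change, at -0.198 and -0.205.

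All 8 subunits of TRiC, the ring-shaped chaperonin that folds actin and tubulin, had values below 0, between -0.26 and -0.08, with Cct2 and Cct6a lowest (edgeR adjusted p = 0.657 for both). Without AAV-GFP 3 only 5 of the 8 were below 0 and the median moved from -0.16 to -0.05, and without both libraries numbered 3 it was 6 of 8 and -0.03. Of 9 J-domain genes, which recruit HSP70 to its clients, 6 were below 0, with a median of -0.08 that was -0.000205 without AAV-GFP 3. Dnajb2 averaged 38.3 ± 4.95 CPM in AAV-RBM20 and 49.8 ± 0.918 CPM in AAV-GFP, with a log2 fold change of -0.38 ± 0.13 (edgeR adjusted p = 0.618). Dnaja4 stood at 0.27 ± 0.16 (edgeR adjusted p = 0.663). Without AAV-GFP 3 Dnajb2 stood at -0.367 and Dnaja4 at 0.257, and without AAV-RBM20 3 they stood at -0.269 and 0.178. Of the other small heat shock proteins, Hspb2 stood at -0.27 ± 0.20 and Hspb3 at -0.30 ± 0.18 (edgeR adjusted p = 0.709 and 0.66). Both had their highest level in AAV-GFP 3, and without it they stood at -0.02 and -0.12.

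Of the 3 heat shock factors 2 were below 0. Hsf1, the main activator of the inducible genes, stood at -0.21 ± 0.14 (edgeR adjusted p = 0.682). Hsf4 stood at -0.43 ± 0.16 (edgeR adjusted p = 0.618), from 7.11 ± 0.629 to 5.29 ± 0.575 CPM. Without AAV-GFP 3 Hsf1 stood at -0.258 and Hsf4 at -0.358. Without AAV-RBM20 3 they stood at -0.0979 and -0.387, so the value of Hsf1 rested largely on that library.

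The 10 partners and clients of BAG3 were mixed, with 7 values below 0 and a median of -0.05. Sqstm1, the autophagy receptor p62, measured 416, 395 and 450.0 CPM in AAV-GFP and 353, 350.3 and 314 CPM in AAV-RBM20. The groups are apart, and the log2 fold change was -0.31 ± 0.13 (edgeR adjusted p = 0.618). Without AAV-GFP 3 it was -0.262, and without AAV-RBM20 3 it was -0.249. Actn2, the Z-disc crosslinker alpha-actinin-2, had a log2 fold change of 0.55 ± 0.35 (edgeR adjusted p = 0.668), higher in 3 of 3 pairs, and 0.23 without AAV-GFP 3. It passed in DESeq2 with the block (adjusted p = 0.00606) and not in edgeR with the same block (adjusted p = 0.148).

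**Figure D4:**
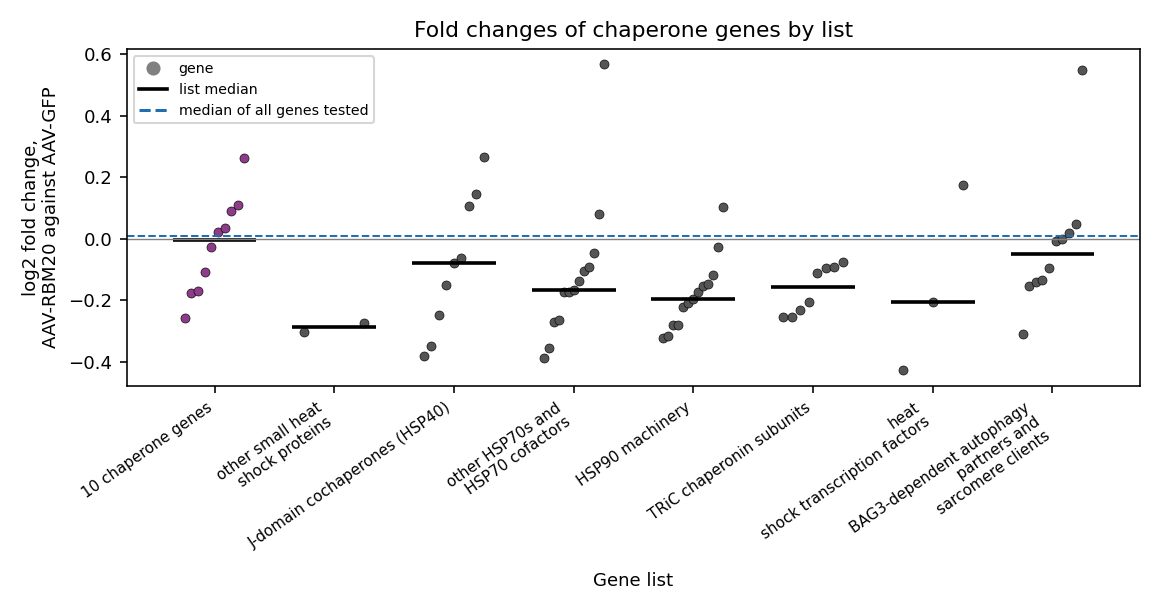
log2 fold change of AAV-RBM20 against AAV-GFP for the 10 chaperone genes (purple) and the tested genes of the 7 chaperone lists (grey), with a black line at each list's median and a dashed line at the median of all genes tested, 0.00897. The 10 genes lie on both sides of 0, and all 8 TRiC subunits and 12 of 13 genes of the HSP90 machinery lie below it, which were 5 of 8 and 10 of 13 without AAV-GFP 3.

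Marker sums of fibre types and other cells, and of immediate early genes, also differed between libraries. The 8 macrophage markers summed to 30.8, 29.8 and 95.4 CPM in AAV-GFP and 73.6, 65.0 and 154 CPM in AAV-RBM20. Of their values 8 of 8 were above 0 and none passed the test. The 6 fibroblast markers summed to 493 to 1050 and 853 to 1090 CPM. For both lists each AAV-RBM20 library was above the AAV-GFP library of its number. The 9 slow fibre markers, Myh2 among them, had 8 values above 0, with a median log2 fold change of 0.76. The 8 fast fibre markers had 7 values below 0, with a median of -0.56, and summed to 89000 to 104000 CPM in AAV-GFP and 58400 to 93300 CPM in AAV-RBM20. Endothelial markers summed to 146 to 341 and 223 to 338 CPM, adipocyte markers to 0.295 to 13.4 and 0.88 to 8.42 CPM, and the 8 immediate early genes, with 8 of 8 values above 0, to 88.5 to 115 and 90.0 to 144 CPM. Smooth muscle and pericyte markers summed to 505 to 561 and 477 to 558 CPM, with a median log2 fold change of 0.000417. Schwann cell markers summed to 11.5 to 33.9 and 15.8 to 25.2 CPM, with a median of 0.0383. All these ranges overlapped between the groups, and their part in the chaperone values was not tested. In bulk RNA fewer cells of a type and less RNA per cell cannot be told apart.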

How the data were processed

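RNA-seq libraries (KAPA stranded kit with ribosomal RNA removal) came from TA muscle of 6 samples, 3 given AAV-GFP and 3 given AAV-RBM20, grouped from the labels. Per the labels, HISAT2 and mm10 served for mapping and HTSeq for counting, and the deposited table gives the authors' unnormalised counts per gene as whole numbers. The strand setting, annotation release and versions are not given in the sources used here. A second table deposited by the authors holds a signal, these counts divided by 1 DESeq2 size factor per library, and served only as a check. Symbols and positions came from GENCODE M21 (GRCm38), which names 55141 of 55401 identifiers.

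The comparison of AAV-RBM20 with AAV-GFP used edgeR 4.0.16 in R 4.3.3 (quasi-likelihood test, filterByExpr, TMM, robust fit, no covariate), with Benjamini-Hochberg adjustment over 17222 genes and a threshold of 0.05. The SE is the size of the log2 fold change divided by the square root of F, and intervals use the t distribution of the fit. CPM used TMM-scaled library sizes, and log2 CPM a prior count of 2. The fit was run on simulated counts with the same spread for every gene and no library standing apart. Those settings differ from these data, so the run checks the code and says nothing of the power here. Total counts of 41400132 to 54226618 per library set the depth. Replicates of a group differed by far more than sampling noise (chi-square per degree of freedom 15.1 to 545).

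The numbers in the titles are shared by the groups. The column names of the deposited counts instead number the AAV-RBM20 libraries on from those of AAV-GFP. The pairing of these libraries thus rests on the titles alone. For the paper's blots of this AAV experiment, the lane list gives some mice an L muscle with RBM20 and an R muscle with GFP. It does not say which mice gave these libraries, so groups that share animals remain possible. Equal numbers in the titles were treated as pairs. Deviations from the group means correlated across genes at 0.42, 0.20 and 0.48 for same-numbered libraries 1, 2 and 3. For AAV-GFP 2 with AAV-RBM20 1 the value was 0.22, and for AAV-GFP 1 with AAV-RBM20 2 it was 0.13. Library 3 stood apart in both groups, and deviations cancel within a group. These values therefore cannot decide whether libraries 1 and 2 are pairs.

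The 10 genes and the lists were chosen with earlier results of these data known. All 10 genes, the summed Hspa1a and Hspa1b, and Rbm20 were named whatever they showed. From each of 7 chaperone lists the genes past the threshold, or otherwise up to 2 with the smallest unadjusted p, were named. The ones added after their values were seen were Flnc, Ttn, Hspb9, Cryaa, Gm20481 and Gm15459. Proser3, Hsp25-ps1 and Gm26825 were also named outside this rule, as genes that share sequence with 1 of the 10. Alternatives were other scalings and low-count filters, the replicate block, DESeq2 1.42.0, limma-voom (limma 3.58.1), leaving out libraries, a newer edgeR method, dropping the counts of Rbm20, ribosomal RNA and mitochondrial genes, and summing Hspa1a and Hspa1b.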

Additional observations from a re-analysis of the deposited data

How the results depend on the processing

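Over 18 alternatives, 0 of the 10 chaperone genes passed the threshold in any, and 15 of 178 single values changed sign, all of them for Cryab, Hspb7, Bag3, Hspa1a and Hspa1b. The smallest adjusted p of a chaperone gene in any setting was 0.108 (Hspb1, without both libraries numbered 3). The median over the 10 moved by less than the spread between replicates under every alternative, from -0.101 to 0.0587 when 1 library was left out. Genes past the threshold over the whole table numbered 0 in the main fit and when any 1 library was left out, 8 with no low-count filter, 690 without both libraries numbered 3, 25 under the replicate block, 72 by DESeq2, and 503 by DESeq2 under the block. The chaperone lists then gained 1 gene in DESeq2 with the block (Actn2) and 1 without both libraries numbered 3 (Hsph1). The block changed no other call among the named genes but that of Rbm20. Cryab stood at -0.0405 and Bag3 at -0.0268 without both libraries numbered 3. Hspb7 stood at 0.0066 with upper quartile factors, 0.12 with the block, 0.10 in DESeq2 with the block and 0.12 in limma-voom. With 1 library left out, log2 fold changes ranged from -0.42 to 0.52 for Hspb7, -0.23 to 0.22 for Bag3, -0.032 to 0.523 for Hspa1a and -0.0543 to 0.129 for Hspa1b. The causes were not tested. Hsp90aa1 kept its sign, from -0.34 to -0.01. The widest intervals were those of Hspb7 (0.444-fold to 2.17-fold) and Hspa1a (0.692-fold to 2.08-fold), the latter at 53 to 140 counts per library.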
